A study of Homo sapiens with 6 samples.

Results

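The sodium pump genes followed here were 3 beta subunits (ATP1B1, ATP1B2 and ATP1B3) and 4 members of the FXYD family of pump regulators (FXYD1, FXYD2, FXYD3 and FXYD5), 7 of the 15949 genes that carried a single symbol in the array annotation. Members were taken by symbol, and where a gene has several transcript clusters the one with the highest mean over the 6 arrays stands for it. Each of the 7 had only 1 such cluster, so brightness decided nothing. The family was chosen by symbol but with the measured fall of FXYD3 between the groups already known, so the values of FXYD3 are a description and lend no support of their own.

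The sodium pump exchanges sodium for potassium across the plasma membrane and sets the gradient that drives sodium-coupled uptake of bile acids, amino acids and phosphate in hepatocytes. Its catalytic alpha subunit needs a glycosylated beta subunit to fold and reach the surface, and a single-span FXYD protein, named after a conserved sequence motif, tunes its affinity for ions.

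The cells were PLC/PRF/5, a long-established line from a human liver tumour (hepatocellular carcinoma), and RNA was taken 48 h after transfection. The control group (3 arrays) received an siRNA against an irrelevant target (siGL2 in the design text, siGL in the protocol), and the knockdown group (3 arrays) received siRNAs against SLU7, a splicing factor of the second catalytic step. Each sample was hybridised to an Affymetrix Human Exon 1.0 ST array, whose deposited data hold a log2 value per array for 18708 transcript clusters, the groups of probe sets that cover a gene. The labels do not say whether replicates were separate cultures, so p-values measure the spread between these arrays only, which may be technical.

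SLU7 itself was lower in every knockdown array, by 1.51 ± 0.31 (SE) log2 units, with a limma adjusted p of 0.0783 over all clusters. Array medians lay between 6.61 and 6.63 log2 units, and the first principal component set 2 arrays, 1 of each group, against the remaining 4: control replicate 2 and SLU7 replicate 1, called the split pair below. Of the 9 measured hepatocyte and hepatoma markers, 5 were above the array median in all arrays, while ALB, albumin, was below the lower quartile in all of them. Of 10 markers of blood, endothelial and stromal cells, 3 were below the lower quartile in all arrays, among them PTPRC. Another 2 of the 10, PDGFRB and DES, were above the array median in all arrays. The mean of the hepatocyte marker list ran from 8.39 to 8.66 log2 units in control arrays and from 7.90 to 8.10 in knockdown arrays. All 9 markers of that list had a negative difference, as had 49.5% of all clusters. None of the 9 was called (0.433% of all clusters were). The mean of the other list ran from 5.26 to 5.53 and from 5.27 to 5.61. The part of the hepatocyte markers' shift in the results below was not tested.

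FXYD3 was the 1 of 7 members that passed the test over all clusters (adjusted p under 0.05). Of all clusters, 0.433% were called, 0.299% as lower and 0.134% as higher, and since FXYD3 helped to choose the family, nothing is read from the count. FXYD3, first described as a mammary tumour marker, measured 8.23, 7.80 and 7.69 log2 units in control replicates 1 to 3. In the knockdown arrays it measured 5.46, 4.43 and 5.68. Every knockdown array was at least 2.01 log2 units below every control array, and SLU7 replicate 2 was the lowest.

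The group means of FXYD3 were 7.91 ± 0.28 and 5.19 ± 0.67 log2 units (SD, n = 3), a difference of -2.72 ± 0.36 (SE). That is a 6.57-fold lower level (limma 95% interval 3.69 to 11.7), with a limma adjusted p of 0.0371, and it was the 8th most negative of the 18708 differences. Within the split pair FXYD3 differed by -2.34 log2 units, and the difference was -2.90 within the remaining 4 arrays. The array lower quartiles lay between 4.86 and 4.98, and SLU7 replicate 2 was below them, so the size of the fold is uncertain. The call was lost when any 1 of the 6 arrays was left out (difference -2.96 to -2.34, limma adjusted p from 0.0632 to 0.18), and without the split pair (adjusted p = 0.112). Fewer cells with the transcript, less transcript in each cell and a changed use of its exons cannot be told apart in these bulk samples.

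**Figure D1:**
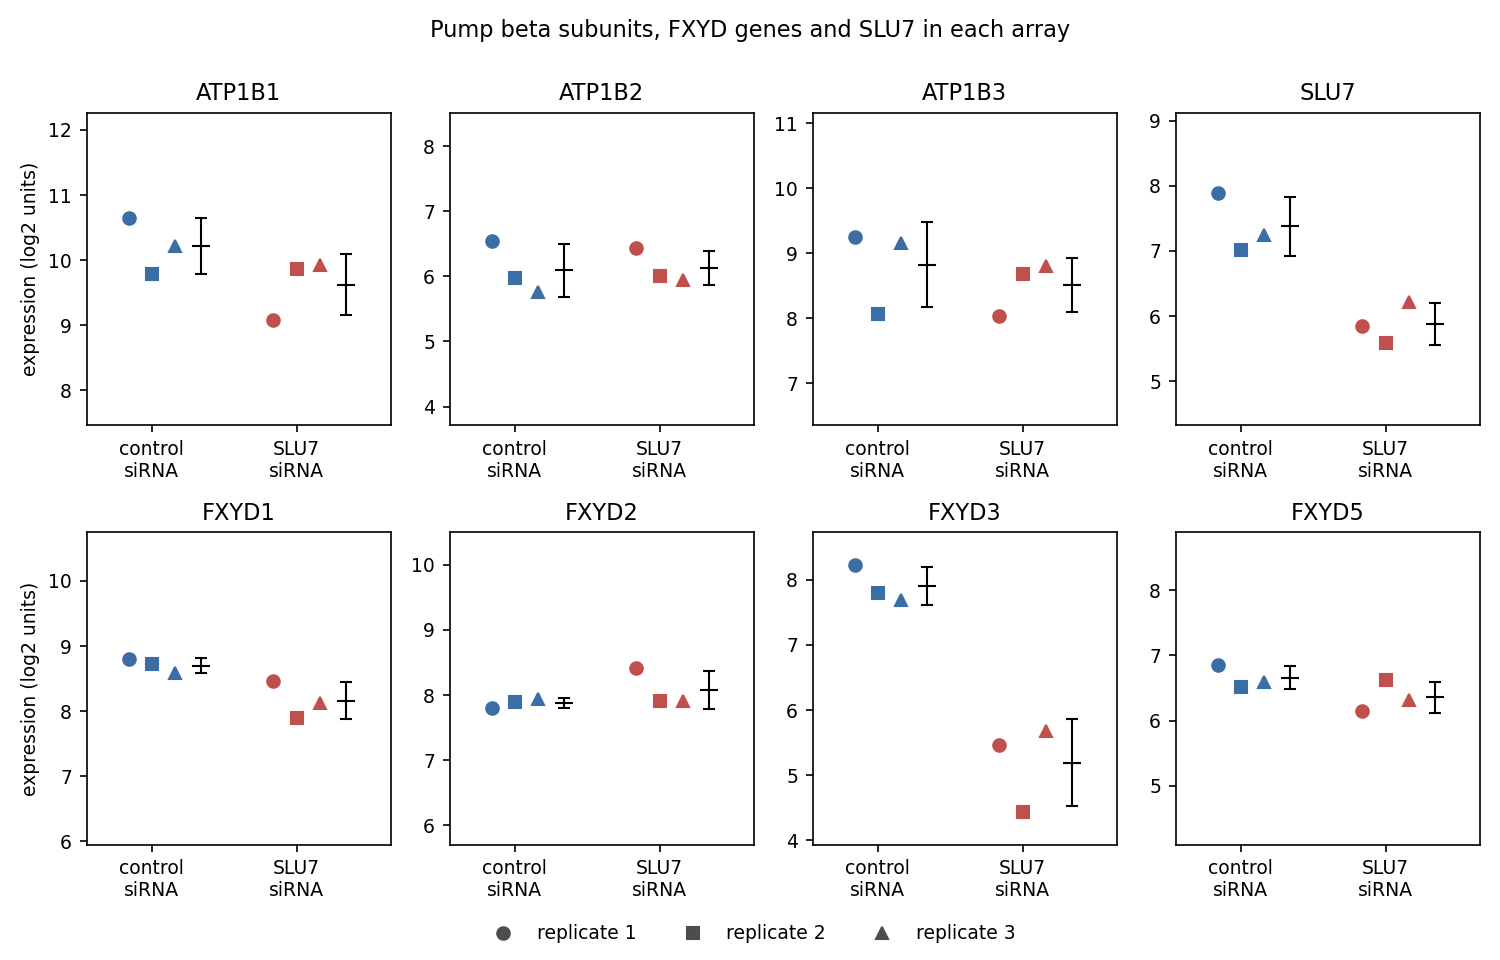
Expression in log2 units (vertical axis, the same span of log2 units in each panel) of the 7 members and of SLU7 in the control and SLU7 siRNA arrays; symbols mark replicates, and the dash with bars gives the mean ± SD (n = 3). The 2 groups lie far apart for FXYD3 and SLU7, narrowly apart for FXYD1 and overlap for the other 5 genes.

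FXYD1, phospholemman, the regulator of the pump in heart and skeletal muscle, measured 8.80, 8.72 and 8.58 log2 units in control arrays and 8.46, 7.90 and 8.13 in knockdown arrays. The groups did not overlap, by 0.11 log2 units, a separation downward that 9.21% of all clusters showed. The difference of -0.54 ± 0.26 (SE) log2 units did not pass the test (limma adjusted p = 0.435, 95% interval -1.12 to 0.05).

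FXYD5, dysadherin, known for weakening cell adhesion through E-cadherin, measured 6.86, 6.52 and 6.59 log2 units in control arrays and 6.15, 6.62 and 6.31 in knockdown arrays. The groups overlapped, SLU7 replicate 2 being above control replicates 2 and 3. Its difference was -0.29 ± 0.26 (SE), with a limma adjusted p of 0.736 and a 95% interval from -0.87 to 0.29.

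FXYD2, the gamma subunit of the renal pump, measured 7.80, 7.90 and 7.94 log2 units in control arrays and 8.41, 7.91 and 7.91 in knockdown arrays. Control arrays agreed closely (SD 0.07), and SLU7 replicate 1, an array of the split pair, was the 1 knockdown array above them. The difference was 0.20 ± 0.26 (SE), with an adjusted p of 0.85 in limma and a 95% interval from -0.39 to 0.78. RefSeq lists a readthrough gene, FXYD6-FXYD2, across FXYD2 and its neighbour FXYD6, so signal of the readthrough transcript cannot be told apart from either gene.

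None of the 3 beta subunits passed the test (0.433% of all clusters did). ATP1B1, the main beta subunit of epithelia, measured 10.65, 9.78 and 10.22 log2 units in control arrays and 9.08, 9.86 and 9.93 in knockdown arrays. The groups overlapped, with control replicate 2 below SLU7 replicates 2 and 3. The difference was -0.59 ± 0.34 (SE), or 1.51-fold lower, with a limma adjusted p of 0.542 and a 95% interval from -1.37 to 0.19. It was -0.32 without SLU7 replicate 1, -0.38 without control replicate 1 and -0.81 without control replicate 2.

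ATP1B3, a widely expressed beta subunit also known as the surface antigen CD298, measured 9.25, 8.07 and 9.15 log2 units in control arrays and 8.04, 8.68 and 8.81 in knockdown arrays. Its difference was -0.31 ± 0.38 (SE), with a limma adjusted p of 0.836 and a 95% interval from -1.18 to 0.56. It was -0.69 without control replicate 2, between -0.15 and -0.08 without control replicate 1, control replicate 3 or SLU7 replicate 1, and -0.46 and -0.40 without SLU7 replicates 3 and 2. The lowest values came from the split pair. There ATP1B3 was 0.92 log2 units lower, and ATP1B1 0.73 lower, than the mean of the remaining 4 arrays, and both arrays of the pair were below all 4 others for both genes. The part of the split in these genes' spread was not tested. Within the remaining 4 arrays the difference was -0.46 for ATP1B3 and -0.53 for ATP1B1.

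ATP1B2, known as an adhesion molecule on glia, measured 6.54, 5.98 and 5.76 log2 units in control arrays and 6.43, 6.0 and 5.95 in knockdown arrays. The ranges nearly coincided, and the difference was 0.04 ± 0.30 (SE; limma adjusted p = 0.985, 95% interval -0.64 to 0.71). Among the 6 members other than FXYD3, 4 had a negative and 2 a positive difference, with a median of -0.30 log2 units, against a median of 0.004 over all clusters, of which 49.5% had a negative difference. That these 6 missed the threshold does not show that they did not change: each interval reaches 0.71 log2 units or more from 0 on at least 1 side.

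The list of other pump and FXYD genes held 4 measured members, none called (0.433% of all clusters were). FXYD6, phosphohippolin, a regulator found in brain, measured 6.23, 5.33 and 5.59 log2 units in control arrays and 3.93, 5.23 and 4.85 in knockdown arrays. All knockdown arrays were below all control arrays, by only 0.1 log2 units, a separation downward that 9.21% of all clusters showed. The difference was -1.05 ± 0.39 (SE), with a limma adjusted p of 0.298. ATP1B4, a beta subunit relative of muscle that is not thought to serve the pump in placental mammals, had the opposite sign, with the groups apart (as upward in 9.64% of all clusters): 1.78, 1.94 and 1.92 in control arrays against 3.22, 2.54 and 2.82 in knockdown arrays. All 6 ATP1B4 values were below the lower quartile of their arrays, so the difference of 0.98 ± 0.27 (SE; limma adjusted p = 0.153) is between dim signals. FXYD7, a brain regulator, differed by -0.60 ± 0.32 (SE; limma adjusted p = 0.493), and FXYD4, the corticosteroid hormone-induced factor of kidney and colon, by 0.35 ± 0.32 (adjusted p = 0.746). Over all 11 measured beta subunit and FXYD genes, FXYD3 was the only one called, against 0.433% of all clusters. Since its fall was known when the family was chosen, nothing is read from this count.

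**Figure D2:**
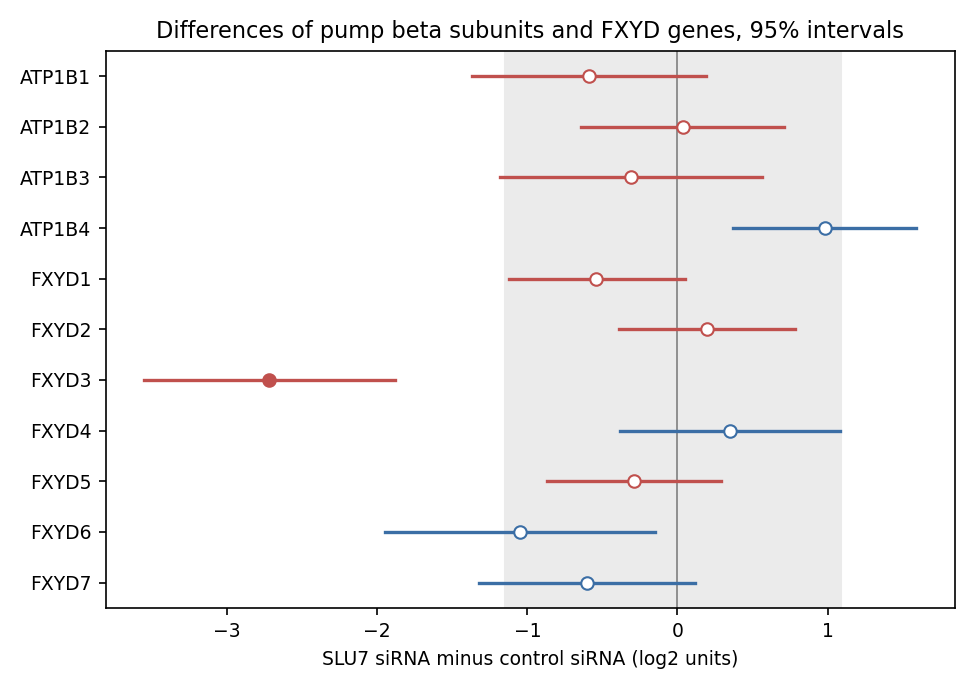
Difference between SLU7 siRNA and control siRNA in log2 units (horizontal axis) with limma 95% intervals, for the 7 members (red) and 4 related genes (blue); a filled point passed the test over all clusters, and the grey band holds the middle 95% of all 18708 differences (-1.15 to 1.09). FXYD3 at -2.72 is the only filled point, and the intervals of all genes but FXYD3, FXYD6 and ATP1B4 include 0.

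FXYD3, FXYD1, FXYD7 and FXYD5 lie near each other on chromosome 19 (gene order from RefSeq, assembly GRCh38.p14), with LGI4 between FXYD3 and FXYD1. The genes around them were therefore examined in RefSeq order. HPN, which encodes hepsin, a transmembrane serine protease abundant on hepatocytes, is the nearest measured gene on one side of FXYD3. It fell as well: 9.46, 9.49 and 9.83 log2 units in control arrays against 7.10, 6.94 and 7.70 in knockdown arrays. Every knockdown array was at least 1.75 log2 units below every control array, and the difference of -2.34 ± 0.29 (SE) is a 5.08-fold lower level (95% interval 3.22 to 8.01, limma adjusted p = 0.0371). It was -2.38 within the split pair and -2.32 in the remaining arrays, and without any 1 array the call was lost (limma adjusted p from 0.0591 to 0.18).

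On the other side of FXYD3, LGI4, which encodes a secreted protein needed for peripheral nerve myelination, differed by -1.37 ± 0.47 (SE) log2 units without passing the test (limma adjusted p = 0.25), and its knockdown mean of 3.19 was dim. Past LGI4 the differences were smaller, at -0.54 for FXYD1, -0.60 for FXYD7 and -0.29 for FXYD5. FAM187B (-0.31), LSR, a lipoprotein receptor of tricellular junctions (-0.17), and USF2, a ubiquitous helix-loop-helix transcription factor (-0.11), followed, with limma adjusted p-values of 0.785, 0.869 and 0.95. All 9 measured genes of this stretch, among them FXYD3 and the other members FXYD1 and FXYD5, had a negative difference. So had all 6 that were not members, against 49.5% of all clusters. Of these 6, HPN, LGI4 and FXYD7 had differences larger than their SE. Those of FAM187B (SE 0.31), LSR (SE 0.24) and USF2 (SE 0.31) were no larger than their SE. The signs are therefore a description, and a shared fall of the stretch was not tested. HPN and FXYD3 were called, against 0.433% of all clusters, and nothing is read from FXYD3, whose fall was known when the stretch was chosen. Around FXYD2 and FXYD6 on chromosome 11, none of the 4 measured genes other than the FXYD genes was called: BACE1 differed by -0.18, DSCAML1 by -0.06, TMPRSS13 by -0.25 and IL10RA by -0.04. Beside FXYD4 on chromosome 10, HNRNPF differed by 0.29 and ZNF239 by 0.37, neither called.

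**Figure D3:**
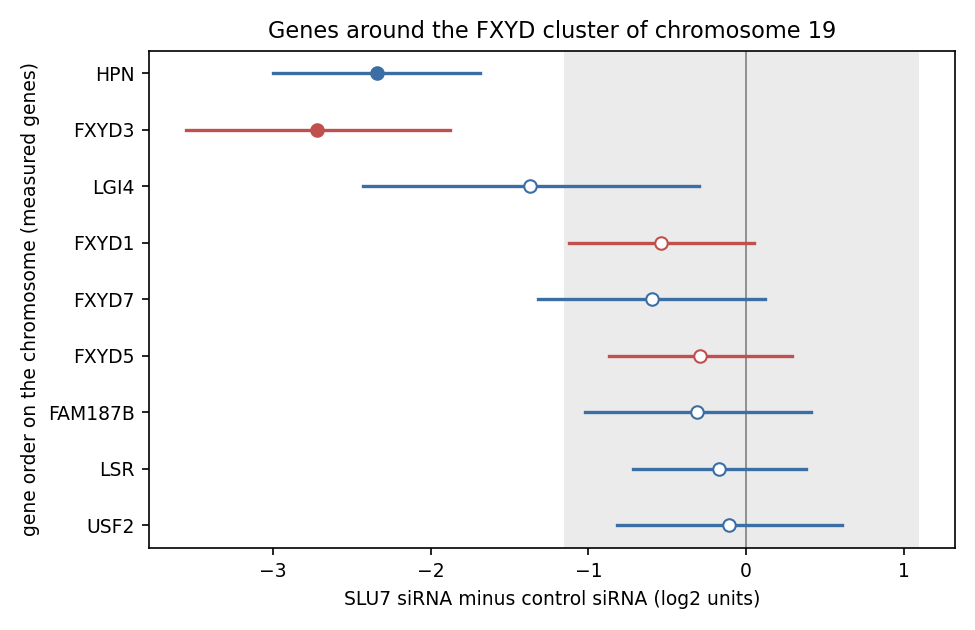
Difference between SLU7 siRNA and control siRNA in log2 units (horizontal axis) with limma 95% intervals for the 9 measured genes around the FXYD cluster of chromosome 19, in their order along it (spacing not to scale); members are red, filled points passed the test, and the grey band holds the middle 95% of all differences. HPN (-2.34) and FXYD3 (-2.72) stand apart from the genes below LGI4, whose differences lie between -0.60 and -0.11.

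The sequences before the annotated starts of 3 genes of this stretch are given because HPN and FXYD3 fell while FXYD5, nearby, differed by -0.29 log2 units and was not called. Each is the 250 bases before a RefSeq start (GRCh38.p14, all on the plus strand), at chr19:35041471-35041720, chr19:35117750-35117999 and chr19:35154485-35154734, with motif matches in capitals.
HPN: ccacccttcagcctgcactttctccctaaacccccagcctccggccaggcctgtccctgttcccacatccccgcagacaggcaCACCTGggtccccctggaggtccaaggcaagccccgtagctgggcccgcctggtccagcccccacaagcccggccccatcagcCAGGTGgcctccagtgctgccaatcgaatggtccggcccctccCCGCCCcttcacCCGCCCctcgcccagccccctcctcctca
FXYD3: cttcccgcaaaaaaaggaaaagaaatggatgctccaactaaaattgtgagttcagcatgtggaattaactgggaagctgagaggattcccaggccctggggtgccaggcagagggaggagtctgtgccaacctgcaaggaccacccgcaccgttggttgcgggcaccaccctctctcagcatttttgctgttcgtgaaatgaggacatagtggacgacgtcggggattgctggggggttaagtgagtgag
FXYD5: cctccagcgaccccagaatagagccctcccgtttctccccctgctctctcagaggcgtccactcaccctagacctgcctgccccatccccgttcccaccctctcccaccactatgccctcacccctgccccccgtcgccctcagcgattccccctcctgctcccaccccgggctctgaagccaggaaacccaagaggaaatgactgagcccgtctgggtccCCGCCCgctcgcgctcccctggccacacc

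Motifs were searched on both strands: the GC box GGGCGG, hypoxia element cores ACGTG and GCGTG, the CAGGTG E-box read by SNAI and ZEB repressors, and the TATA box TATAAA. HPN held 2 GC boxes and 2 E-boxes, FXYD5 held 1 GC box, and FXYD3 held no match to any of the 4 motifs. Windows of FXYD1, which lies between FXYD3 and FXYD5 and was not called, are not printed. The one from position 35138574 held 2 GC boxes, and the one from 35138885 held 3 matches to hypoxia element cores. Among these matches, CACGT and ACGTG overlap as the strands of a single CACGTG. The one from 35139384 held 1 hypoxia element core and 1 TATA box. Whether these motifs bear on the differences was not tested. Of all 35116 RefSeq promoter windows of this length, 42.6% held a GC box, 43.2% a hypoxia element core, 17.5% the E-box and 10.7% the TATA box. The FXYD3 window was 53.6% G and C, against 70.4% for HPN, 68.0% for FXYD5 and a median of 58.0% over all windows. The table held windows for 6 of the 7 members.

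Genes that work beside the pump were followed in 5 further lists, chosen, like the members, with earlier results of these data known. Among 31 measured P-type ATPases and accessory subunits outside the sodium pump, 1 was called lower (0.299% of all clusters) and none higher (0.134%), 23 had a negative difference (49.5% of all clusters) and the median was -0.26 log2 units. The called gene was ATP2A2, the SERCA2 calcium pump of the endoplasmic reticulum. It measured 9.69, 9.45 and 9.78 log2 units in control arrays and 7.50, 7.90 and 7.15 in knockdown arrays. All knockdown arrays were far below the controls, and ATP2A2 fell 4.37-fold (difference -2.13 ± 0.28 SE, limma adjusted p = 0.0371). The call was lost without any 1 array (limma adjusted p from 0.0591 to 0.18). ATP2B4, a plasma membrane calcium pump, differed by -1.13 ± 0.53 (SE) without passing (limma adjusted p = 0.427).

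Of 15 measured kinases and partners that act on the pump or on sodium channels, 1 was called lower (0.299% of all clusters) and none higher (0.134%), with a median of -0.07. NEDD4L, the ubiquitin ligase that removes epithelial sodium channels from the surface, measured 7.39, 7.72 and 7.93 log2 units in control arrays and 5.20, 5.91 and 5.51 in knockdown arrays. The groups lay well apart, and NEDD4L fell 4.41-fold (difference -2.14 ± 0.29 SE, limma adjusted p = 0.0371; 0.0632 to 0.18 without any 1 array). PRKCA, the alpha protein kinase C, an isoform of the kinase that phosphorylates phospholemman, was tight in the control arrays (7.07, 7.06 and 7.06) and lower in the knockdown arrays (5.04, 4.90 and 5.99). Its difference of -1.75 ± 0.33 (SE) log2 units did not pass the test (limma adjusted p = 0.0621). It passed with an intensity trend, array weights or the split pair as a block (limma adjusted p = 0.0246, 0.0297 and 0.0395), and did not without any 1 array (0.101 to 0.212).

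**Figure D4:**
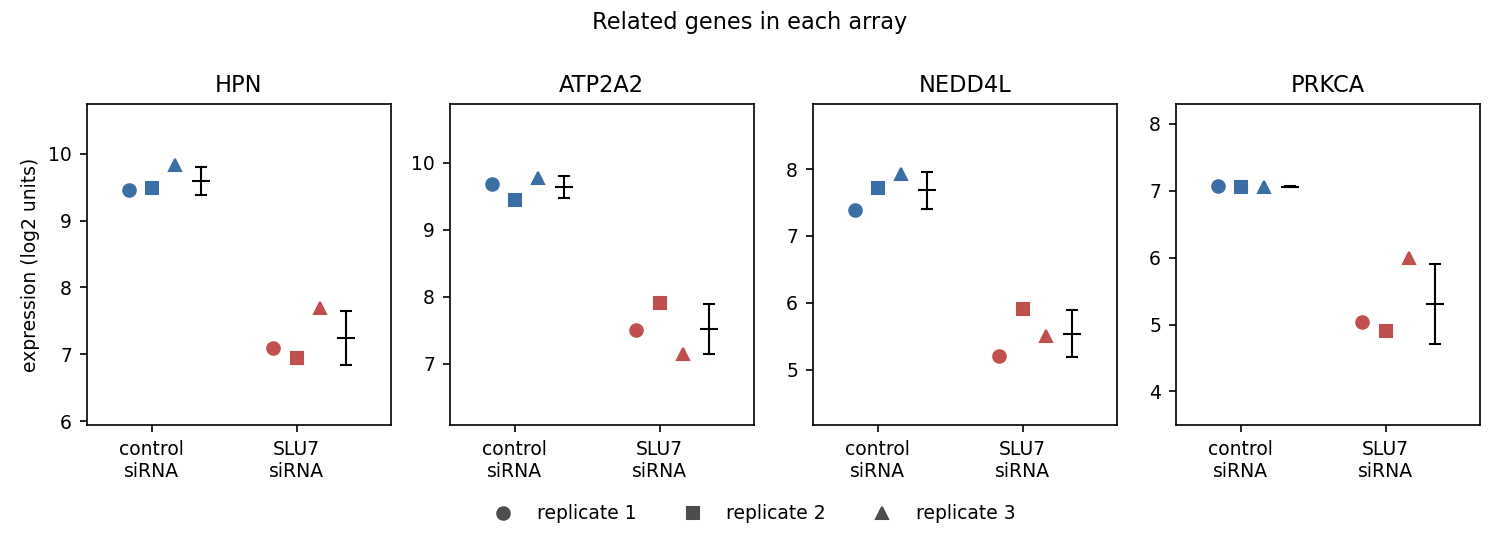
Expression in log2 units (vertical axis, the same span of log2 units in each panel) of HPN, ATP2A2, NEDD4L and PRKCA in each array; symbols mark replicates, and the dash with bars gives the mean ± SD (n = 3). In all 4 genes every knockdown array is below every control array, with the knockdown value nearest to the controls in SLU7 replicate 3 for HPN and PRKCA and in SLU7 replicate 2 for ATP2A2 and NEDD4L.

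None of the 24 measured sodium-coupled carriers and sodium channels was called in limma at the adjusted threshold (0.433% of all clusters were). Of the 24, 3 had an unadjusted p under 0.05 (as had 13.1% of all clusters), and the median of the list was -0.14. The largest difference was that of SLC38A3, the sodium-coupled glutamine carrier of hepatocytes, at -1.61 ± 0.30 (SE) log2 units (limma adjusted p = 0.0613). The SLC38A3 groups did not overlap, as downward in 9.21% of all clusters. It passed among the brighter clusters, with an intensity trend, array weights or the split block (limma adjusted p from 0.0139 to 0.0333), and did not without any 1 array (0.0914 to 0.212). SLC20A1, a sodium-phosphate carrier, differed by -0.87 ± 1.10 (SE) and spread widely within groups: its 4.58 in control replicate 2 and 3.87 in SLU7 replicate 1 were the lowest values, against 6.57 to 8.51 in the remaining 4 arrays. None of the 12 measured transcription factors known for pump or FXYD genes was called (0.433% of all clusters were). Of the 12, 1 had an unadjusted p under 0.05 in limma, as had 13.1% of all clusters. A positive difference was found for 8 of the 12, with a median of 0.20 over the list, while 49.5% of all clusters had a negative difference. ZEB1, a repressor of epithelial genes, differed by 0.63 ± 0.27 (SE; limma adjusted p = 0.364), and SP1, which binds GC boxes, by 0.58 ± 0.31 (adjusted p = 0.503).

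**Figure D5:**
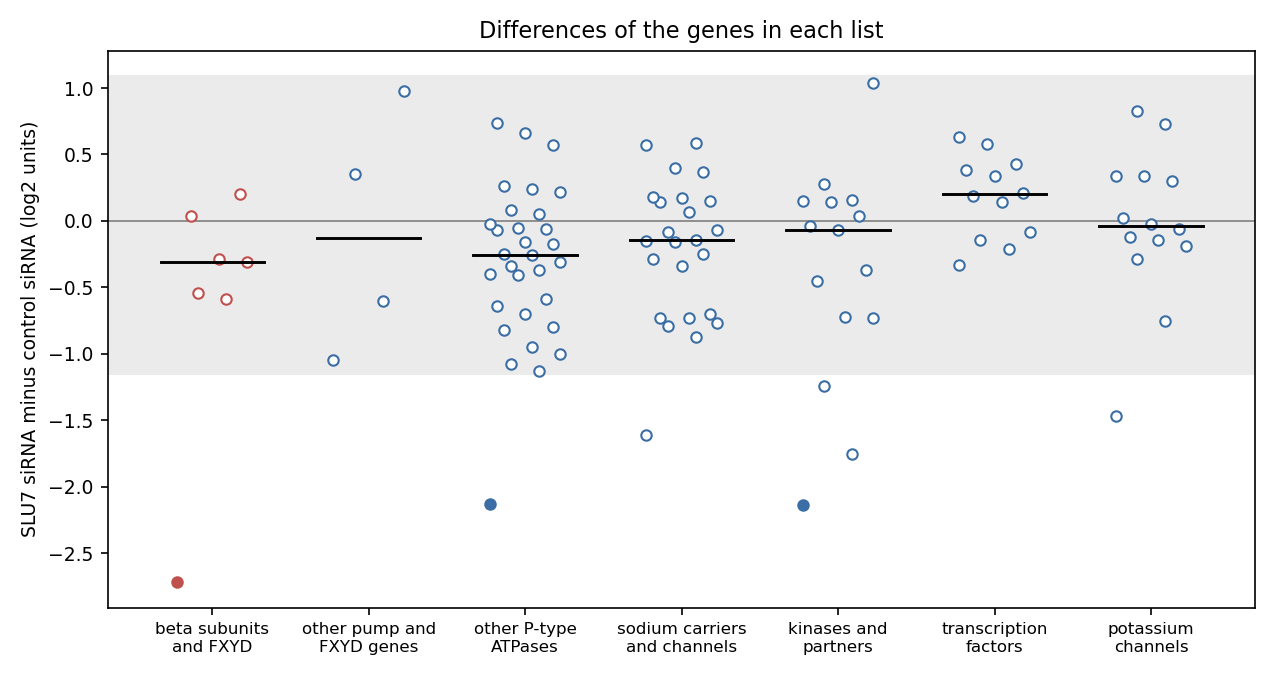
Difference between SLU7 siRNA and control siRNA in log2 units (vertical axis) of each gene in the members (red) and in 6 lists (blue, spread sideways only for legibility); filled points passed the test, black lines are medians and the grey band holds the middle 95% of all differences. The 3 filled points are FXYD3, ATP2A2 and NEDD4L, and the list medians lie between -0.31 and 0.20.

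The genes whose values followed FXYD3 most closely over the 6 arrays, by Pearson correlation among all 15949 genes, were CLDN1, a claudin of tight junctions (0.998), TGFB1, transforming growth factor beta 1 (0.996), KLF17, a Kruppel-like transcription factor (0.991), FN1, fibronectin (0.990), and ARG2, the mitochondrial arginase (0.989). With group means removed the correlations were 0.98, 0.96, 0.89, 0.90 and 0.87. They are a description over 6 arrays that share normalization, picked as the closest of many. Their own differences were smaller than that of FXYD3, from -1.49 for FN1 (limma adjusted p = 0.0518) to -0.57 for KLF17, and none was called. FN1 passed under 5 alternatives (limma adjusted p from 0.00996 to 0.0492) and did not without any 1 array (0.0851 to 0.209).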

How the data were processed

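Per the labels, total RNA of 6 samples was converted to labelled cDNA and hybridised, 1 sample per Affymetrix Human Exon 1.0 ST array, summarised by the authors over the core probe sets (chip definition from aroma.affymetrix). The deposited log2 values were made by the authors with RMA (background correction, normalization and probe summary), per the submitters' processing notes. Neither build nor annotation release is given in the sources used here. All core probe sets of a gene form 1 value, so exon use and level cannot be told apart.

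Clusters were named from GEO's platform annotation (16287 with 1 symbol, 674 with several, 1747 with none), with 2179 older symbols updated through RefSeq (GRCh38.p14). The test was limma's (lmFit and eBayes without a filter; limma 3.58.1 in R 4.3.3) on all 18708 clusters, adjusted by Benjamini-Hochberg at 0.05. Residual degrees of freedom were 4, with 4.49 from the prior; the number of arrays limits the precision (median SE 0.312 log2 units). No lists were tested as sets; 3 arrays against 3 cannot give an exact permutation p under 0.1. Same-numbered arrays did not deviate together, which does not exclude that they were paired. The members and lists were chosen with earlier results of these data known. Named genes were SLU7, all members, all other measured pump and FXYD genes, called genes and the 2 largest differences of each list, neighbours of FXYD genes and the 5 closest to FXYD3. Examples beyond the rule are given only as values.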

Additional observations from a re-analysis of the deposited data

How the results depend on the processing

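The count of 81 called clusters became 0 at a threshold of 0.01, 474 among the brighter clusters, 441 with an intensity trend and robust shrinkage, 575 with array weights, 783 with the split pair as a block (read off these arrays, so likely too many) and 0 without that pair (2922 at an unadjusted p under 0.05). With the replicate block it was 0. Same-numbered arrays deviated with correlations of -0.381, -0.314 and 0.141, and the split pair with 0.517. The labels do not say whether the numbers pair arrays. These correlations cannot exclude it, since the split could hide a weaker pairing. Without any 1 array the count of called clusters was 0 (1833 to 2573 at an unadjusted p under 0.05). The count of 1 called member, FXYD3, became 0 at a threshold of 0.01, with the replicate block (limma adjusted p = 0.161), without the split pair (adjusted p = 0.112), in every analysis without 1 array, and among the brighter clusters, where 4 members were tested and FXYD3 was not. FXYD3 remained called with quantile normalization, median centring, the trend, array weights, gene means and the split block (limma adjusted p from 0.00593 to 0.0398), and its difference ran from -2.96 to -2.34 over all alternatives. The sign of ATP1B2 turned in 5 of 14 alternatives: -0.01 with array weights, -0.17 without the split pair, and within -0.13 to 0.26 without 1 array (-0.02 without control replicate 2, -0.13 without control replicate 3, -0.12 without SLU7 replicate 1). HPN, NEDD4L and ATP2A2 also lost their calls with the replicate block (limma adjusted p = 0.161 each) and without the split pair (0.112 each). The other 5 members kept their sign and stayed uncalled, but without 1 array FXYD2 ran from 0.03 to 0.28 and FXYD5 from -0.42 to -0.19, as ATP1B1 and ATP1B3 also moved; the causes were not tested. The number of arrays limits what could be seen.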

Other observations

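Potassium channels return the potassium that the pump brings in. None of the 14 measured potassium channel genes of hepatocytes and epithelia was called in limma (0.433% of all clusters were). Of the 14, 3 had an unadjusted p under 0.05, as had 13.1% of all clusters. The median difference of the 14 was -0.04 log2 units. The largest differences were those of KCNE3, a regulatory channel subunit of epithelia, at -1.47 ± 0.38 (SE; limma adjusted p = 0.137), and KCNK2, a mechanosensitive background channel, at 0.83 ± 0.31 (SE; adjusted p = 0.296). KCNE3 measured 4.05, 4.44 and 4.4 log2 units in control arrays and 3.13, 3.37 and 1.97 in knockdown arrays, all dim.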
